A study of Mus musculus with 6 samples.

Results

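The NSL and MSL complexes share the histone acetyltransferase KAT8, also called MOF, which acetylates lysine 16 of histone H4. The accessibility of chromatin at 10 genes of these complexes was examined in muscle stem cells (MuSCs) lacking TAF4A. The genes were Kansl1, Kansl2, Kansl3, Mcrs1, Phf20, Wdr5 and Kat8 of the NSL complex, the Kansl1 paralogue Kansl1l, and Msl1 and Msl2 of the MSL complex. Their peaks were all those annotated with one of these symbols, plus peaks without a gene that lay between the start and the stop of such a gene. The rule gave 25 peaks of the 75412 in the table. Of these, 20 carried a symbol and 5 had no gene of their own, namely 2 inside Kansl1 and 3 inside Phf20.

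MuSCs are the Pax7-expressing cells that lie dormant beneath the sheath of adult muscle fibres and rebuild the fibres after injury. Taf4a encodes a subunit of the general transcription factor TFIID, which assembles at core promoters. ATAC-seq, in which the Tn5 transposase cuts accessible DNA and inserts sequencing adapters, was performed on freshly isolated MuSCs of adult C57BL/6 mice, with 3 control and 3 Taf4a sKO libraries. Taf4a sKO animals carried Pax7CreERT and Taf4a flox/flox alleles, so that tamoxifen removed the floxed exons of Taf4a in Pax7-expressing cells. Controls were littermates, described in the methods as Taf4a flox/flox animals either without or with Cre, and tamoxifen is described for the Taf4a sKO animals. Cells of both sexes were used, and the cells were sorted by surface markers or a Pax7 reporter. The study reports that the sorted cells were not fully pure when checked again. The labels do not say which animal gave which library, so p-values measure the spread between these libraries.

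KAT8 is the catalytic subunit of both complexes. In the NSL complex, KANSL1 is the scaffold that holds KAT8 and WDR5, KANSL2 and KANSL3 are further core subunits, MCRS1 binds within the complex and PHF20 reads methylated lysines. WDR5 is shared with the MLL histone methyltransferase complexes. In the MSL complex, MSL1 is the scaffold that binds KAT8, and MSL2 is a ubiquitin ligase that binds MSL1. The NSL complex is known to act at promoters of widely expressed genes and also acetylates lamins of the nuclear envelope.

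Sequences at the peaks that the results turn on are shown first, taken from GRCm38.p6, the assembly that mm10 denotes. Promoter sequences are from RefSeq and were matched by symbol for 10 of the 10 genes. The first pair shows the 250 bases before the start sites of Kansl2 and Mcrs1, given on the strand of the gene. Capitals mark a CCAAT box (CCAAT) or a GC box (GGGCGG) on either strand.
Kansl2 promoter, chr15:98534270-98534519, minus strand: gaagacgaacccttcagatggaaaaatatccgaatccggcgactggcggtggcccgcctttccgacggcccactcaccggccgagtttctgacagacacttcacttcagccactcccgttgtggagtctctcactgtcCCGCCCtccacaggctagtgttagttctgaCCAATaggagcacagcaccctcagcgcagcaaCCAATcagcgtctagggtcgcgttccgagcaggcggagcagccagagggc
Mcrs1 promoter, chr15:99251962-99252211, minus strand: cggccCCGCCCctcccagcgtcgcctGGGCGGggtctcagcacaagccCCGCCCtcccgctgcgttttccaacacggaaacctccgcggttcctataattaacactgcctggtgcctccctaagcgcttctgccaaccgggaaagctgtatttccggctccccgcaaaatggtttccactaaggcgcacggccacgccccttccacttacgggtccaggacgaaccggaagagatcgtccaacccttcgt

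The next sequences are the central 200 bases of peaks outside promoters that differed between the genotypes, given on the plus strand. Both differing peaks of Kansl2 are shown because they moved in opposite directions, and the peaks of Phf20 and Msl2 because they had the smallest adjusted p among the members. Capitals mark a CCAAT box, an AP-1 site (TGANTCA) or an E-box (CANNTG) on either strand, and in the first sequence an E-box and an AP-1 site overlap.
Kansl2 intronic peak, higher, chr15:98532367-98532566: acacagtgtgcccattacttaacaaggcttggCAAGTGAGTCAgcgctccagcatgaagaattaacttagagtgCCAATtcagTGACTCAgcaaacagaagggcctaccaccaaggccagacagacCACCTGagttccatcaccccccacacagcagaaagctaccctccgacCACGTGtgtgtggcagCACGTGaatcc
Kansl2 intronic peak, lower, chr15:98527112-98527311: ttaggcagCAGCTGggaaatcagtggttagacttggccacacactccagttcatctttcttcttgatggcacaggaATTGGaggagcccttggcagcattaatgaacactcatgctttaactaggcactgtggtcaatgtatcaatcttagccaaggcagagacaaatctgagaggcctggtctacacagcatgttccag
Phf20 intronic peak, higher, chr2:156202948-156203147: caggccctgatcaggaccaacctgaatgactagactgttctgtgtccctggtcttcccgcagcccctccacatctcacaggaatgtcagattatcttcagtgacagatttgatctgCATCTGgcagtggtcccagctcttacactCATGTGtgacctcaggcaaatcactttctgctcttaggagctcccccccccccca
Msl2 intronic peak, higher, chr9:101076562-101076761: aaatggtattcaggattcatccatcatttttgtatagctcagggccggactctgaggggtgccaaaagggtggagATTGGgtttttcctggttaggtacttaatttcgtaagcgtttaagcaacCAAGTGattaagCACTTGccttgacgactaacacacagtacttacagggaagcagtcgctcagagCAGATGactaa

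The letters of these motifs were common. In 250 bases before the start, 33.8% of 32851 RefSeq promoters held a CCAAT box and 32.7% a GC box. The Kansl2 promoter held 2 CCAAT boxes and 1 GC box, and the Mcrs1 promoter held 3 GC boxes and no CCAAT box. Of 14 RefSeq promoter windows of the members that touched one of their peaks, 13 held a GC box and 6 a CCAAT box. Kansl1, Kat8 and Msl2 had more than 1 such window, and those at the inner start of Kansl1 overlapped. A further window of Kansl1l and another of Msl1 touched no member peak and held neither box. The RefSeq shares above were not limited to promoters with a peak. Among 56893 peaks outside promoters, the central 200 bases held an AP-1 site in 19.5% and an E-box in 72.1%. The higher Kansl2 peak held 2 AP-1 sites and 4 E-boxes, the lower one 1 E-box and no AP-1 site. The other 6 member peaks called higher held no AP-1 site, and 3 of 7 uncalled member peaks outside promoters held one. Over the whole table, 26.1% of peaks outside promoters called higher held an AP-1 site, and 14.9% of those called lower. Such matches describe the letters only.

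Values are the authors' read counts per peak, normalized for sequencing depth and rounded, and a level given per kb is divided by the width of the peak. A promoter peak is the peak of a gene nearest to its annotated start, with its centre within 1000 bp of it. Each of the 10 genes had 1 promoter peak, and the remaining 15 peaks lay in gene bodies (11) or upstream (4). Peaks with a mean above 10 were tested with limma on log2(value + 1), and p-values were adjusted over 75384 peaks. A peak with an adjusted p under 0.05 is called higher or lower in Taf4a sKO than in control MuSCs. All 25 member peaks passed the filter on low values.

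The whole table summed to 37722015, 35226223 and 42803315 for control libraries 1 to 3 and to 44311913, 41661725 and 41948821 for Taf4a sKO libraries 1 to 3. Depth multipliers of 1.00 to 1.39 were estimated from gaps in the whole numbers of each library, which put between 27151542 and 35284442 counted reads in peaks per library. Control library 3 had the highest control value in 23 of the 25 member peaks, and control library 2 the lowest in 22. The coefficient of variation was larger in the control than in the Taf4a sKO libraries at 23 of the 25 member peaks and at 66.3% of all peaks tested. Its median over the member peaks was 11.8% in control and 5.5% in Taf4a sKO libraries. Over all peaks the median log2 fold change was 0.10 with the deposited scaling and -0.01 after dividing each library by a median-of-ratios factor. This second scaling lowers every change, and its values are given below for the called member peaks and where a call differs.

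The targeted gene was checked first. The peak over exon 12 of Taf4a, listed as Taf4, at chr2:179922849-179923263, had values of 65, 78 and 137 in control and 44, 22 and 25 in Taf4a sKO MuSCs. All mutant values lay under all control values, and the log2 fold change was -1.58 (SE 0.30, adjusted p = 0.00034, limma). The Taf4a promoter peak, which lies outside the deleted exons, had 2305, 1998 and 2375 in control and 2095, 2124 and 2104 in Taf4a sKO MuSCs (log2 fold change -0.07, SE 0.10, adjusted p = 0.59, limma). With median-of-ratios scaling this peak was called lower (log2 fold change -0.19, adjusted p = 0.0087, limma), as it was with equal totals and with quantile normalization (adjusted p = 0.002 and 0.0021). Peaks outside the deleted exons also differed. At exon 7 a peak with 253, 249 and 302 in control and 140, 145 and 165 in Taf4a sKO MuSCs fell (log2 fold change -0.83, adjusted p = 0.00014, limma). Of the 2 remaining Taf4a peaks, the one at chr2:179916955-179917641 fell (-0.49, adjusted p = 0.027, limma) and the one at chr2:179979788-179980166 rose (0.55, adjusted p = 0.003, limma).

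Chromatin at the promoters of the NSL and MSL genes was open in both genotypes, and none of the 10 promoter peaks was called. Among all 13774 promoter peaks tested, 12.8% were called higher and 6.35% lower. In normalized values per peak, the median over the 10 promoter peaks was 2625 in control and 2620 in Taf4a sKO MuSCs. Their log2 fold changes ran from -0.03 at Wdr5 to 0.15 at Phf20 with a median of 0.07, and the median of all promoter peaks was 0.06. Of all 13774 promoter peaks tested, 2925 had every Taf4a sKO value above every control value and 1558 had every value below. None of the 10 promoter peaks of the members had groups without overlap. With median-of-ratios scaling the range became -0.15 to 0.04 with a median of -0.04, and the Mcrs1 and Wdr5 promoter peaks were called lower (log2 fold change -0.13, adjusted p = 0.032, and -0.15, adjusted p = 0.047, limma). With that scaling 22.6% of all promoter peaks were called lower. Without control library 3 the promoter peaks of Kansl2, Kansl1, Phf20 and Msl2 were called higher, where 29.5% of all promoter peaks were.

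**Figure D1:**
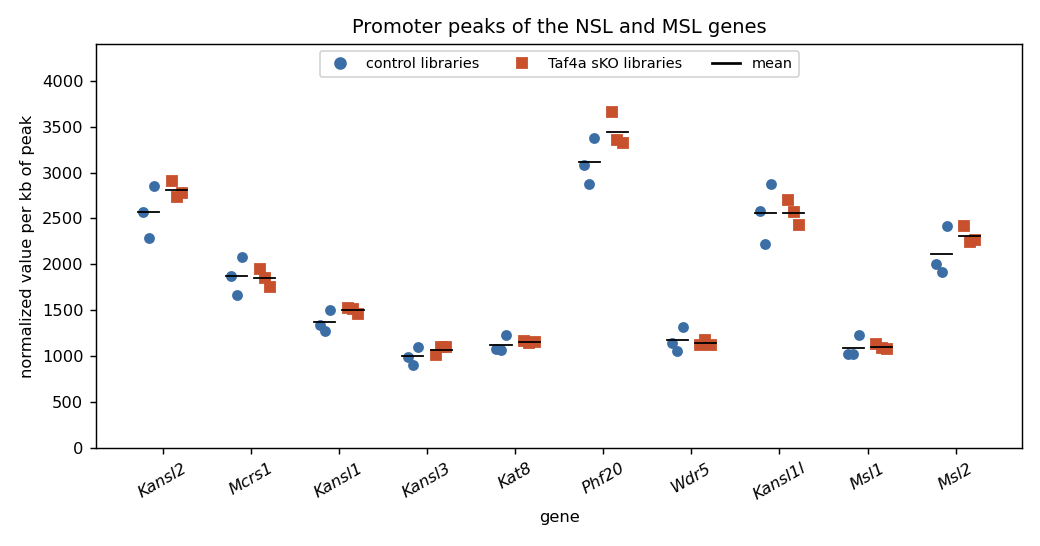
Normalized value per kb of peak (y axis, linear) at the promoter peaks of the 10 genes (x axis), with 1 point per library and a line at the mean of 3 libraries. The Phf20 promoter stands highest, at 3111 per kb in control and 3444 per kb in Taf4a sKO libraries, and in every gene the points of the genotypes overlap.

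Per kb of peak, the promoters covered a wide span of levels. Phf20 had the highest level in control MuSCs, 3111 ± 253 per kb (SD, n = 3), higher than 98.0% of all promoter peaks tested. All control values of Phf20 lay above those of Kansl2 (2573 ± 282), which came next. Kansl1l (2558 ± 328) and Msl2 (2110 ± 269) followed, and from Kansl2 to Msl2 neighbours in this order overlapped. Mcrs1 (1876 ± 207) overlapped with Msl2 but not with Kansl1 (1371 ± 119). Wdr5 (1174 ± 131), Kat8 (1123 ± 88.4), Msl1 (1093 ± 122) and Kansl3 (998.2 ± 101.3) formed the lower end, where each overlapped with the next, and Kansl3 stood above 51.6% of all promoter peaks. The order in Taf4a sKO MuSCs was the same except that Kat8 and Wdr5 changed places.

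The Kansl2 promoter peak, at chr15:98533509-98534705 over the start site and the first exon, had 3081, 2741 and 3416 in control and 3485, 3276 and 3320 in Taf4a sKO MuSCs. The highest control library lay within the range of the Taf4a sKO libraries, and the log2 fold change of 0.13 (95% confidence interval -0.08 to 0.34, adjusted p = 0.32, limma) was within the replicate error. It was 0.05 without control library 2 (adjusted p = 0.68) and 0.21 without control library 3, where the peak was called higher (adjusted p = 0.030, limma). The Mcrs1 promoter peak, at chr15:99251351-99252781, also holds the start of the non-coding gene 1700120C14Rik, so the peak belongs to both. It had 2681, 2391 and 2982 in control and 2787, 2650 and 2515 in Taf4a sKO MuSCs. All Taf4a sKO values lay inside the control range, with a log2 fold change of -0.01 (95% confidence interval -0.23 to 0.20, adjusted p = 0.93, limma).

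The Kat8 promoter peak, at chr7:127912051-127912916, had the smallest SD of the promoter peaks in the mutant, 10.2. It had 931, 926 and 1061 in control and 1012, 993 and 996 in Taf4a sKO MuSCs (log2 fold change 0.04, 95% confidence interval -0.18 to 0.27, adjusted p = 0.78, limma). The Wdr5 promoter peak, at chr2:27514660-27515814, had 1324, 1224 and 1521 in control and 1300, 1357 and 1299 in Taf4a sKO MuSCs (log2 fold change -0.03, 95% confidence interval -0.26 to 0.19, adjusted p = 0.82, limma). In both genes the mutant values fell within the span of the controls. Kansl3, at chr1:36368212-36369477, had 1255, 1140 and 1396 in control and 1275, 1387 and 1387 in Taf4a sKO MuSCs (adjusted p = 0.49, limma). For Kat8, Wdr5, Kansl3 and Kansl1l the promoter peak was the only peak.

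Kansl1 had a strong peak at its outer start and another at an inner start. The peak at the outer start, chr11:104468737-104469848, had 1492, 1411 and 1669 in control and 1693, 1683 and 1626 in Taf4a sKO MuSCs (log2 fold change 0.13, adjusted p = 0.32, limma). The peak at chr11:104441494-104443136 carries no gene in the table, but 2 start sites of coding Kansl1 transcripts in GENCODE lie within it, 26.5 kb inside the gene. It was the stronger of the pair, with 3068, 2644 and 3566 in control and 3343, 3237 and 3160 in Taf4a sKO MuSCs, or 1882 per kb in control against 1371 per kb at the outer start. Neither differed between the genotypes beyond the replicate error (inner start, log2 fold change 0.08, adjusted p = 0.59, limma). The other Kansl1 peaks, 7.2 kb and 106.9 kb inside the gene, had mean values of 69.0 and 89.0 in control MuSCs and were not called (adjusted p = 0.97 and 0.15, limma).

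None of the remaining promoters was called. Kansl1l, at chr1:66815884-66818119, had 5764, 4966 and 6430 in control and 6030, 5755 and 5418 in Taf4a sKO MuSCs (adjusted p = 0.95, limma). Msl1, at chr11:98794535-98796881, had 2410, 2390 and 2894 in control and 2666, 2565 and 2535 in Taf4a sKO MuSCs (adjusted p = 0.90, limma). In both, the values of Taf4a sKO libraries lay between those of the controls. Msl2, at chr9:101073371-101075262, had 3787, 3618 and 4571 in control and 4575, 4244 and 4282 in Taf4a sKO MuSCs (adjusted p = 0.31, limma), and Phf20, at chr2:156196262-156197293, had 3176, 2968 and 3486 in control and 3777, 3456 and 3428 in Taf4a sKO MuSCs (adjusted p = 0.25, limma). For these genes the mutant mean was above the control mean, within the overlap of the groups.

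Away from the promoters, 8 of the 15 member peaks were called, 7 higher and 1 lower. Among the 61610 other peaks tested, 31.4% were called higher and 15.6% lower. Over all 25 member peaks the same 7 higher and 1 lower calls stood against 28.0% higher and 13.9% lower among all peaks. The median log2 fold change of the 15 peaks was 0.30, and that of all peaks outside promoters was 0.14. In each called peak the groups did not overlap, so 7 of 25 member peaks had every Taf4a sKO value above every control value and 1 had every value below. In the whole table these shares were 32.3% and 18.0%. Without control library 3, 12 member peaks were called higher, beside 37.8% of all peaks, and without control library 2 or Taf4a sKO library 1, 3 and 4 were, beside 21.3% and 23.0%. With median-of-ratios scaling the 8 calls held, and the log2 fold changes were 0.32 and -0.80 at the Kansl2 peaks 1.8 and 7.1 kb inside the gene, 0.58, 0.635 and 0.47 at the Phf20 peaks 6.3 kb upstream and 6.6 and 37.4 kb inside, 0.19 and 0.165 at the Msl1 peaks 9.0 and 6.4 kb upstream, and 0.78 at the Msl2 peak. In bulk samples a changed share of a cell type and a change within cells cannot be told apart. By the thresholds of the study, a log2 ratio of the means beyond 1, no member peak was gained or lost, where 7.03% of all peaks were gained and 5.36% lost. Without control library 3, 1 member peak was gained, beside 9.76% of all peaks.

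**Figure D2:**
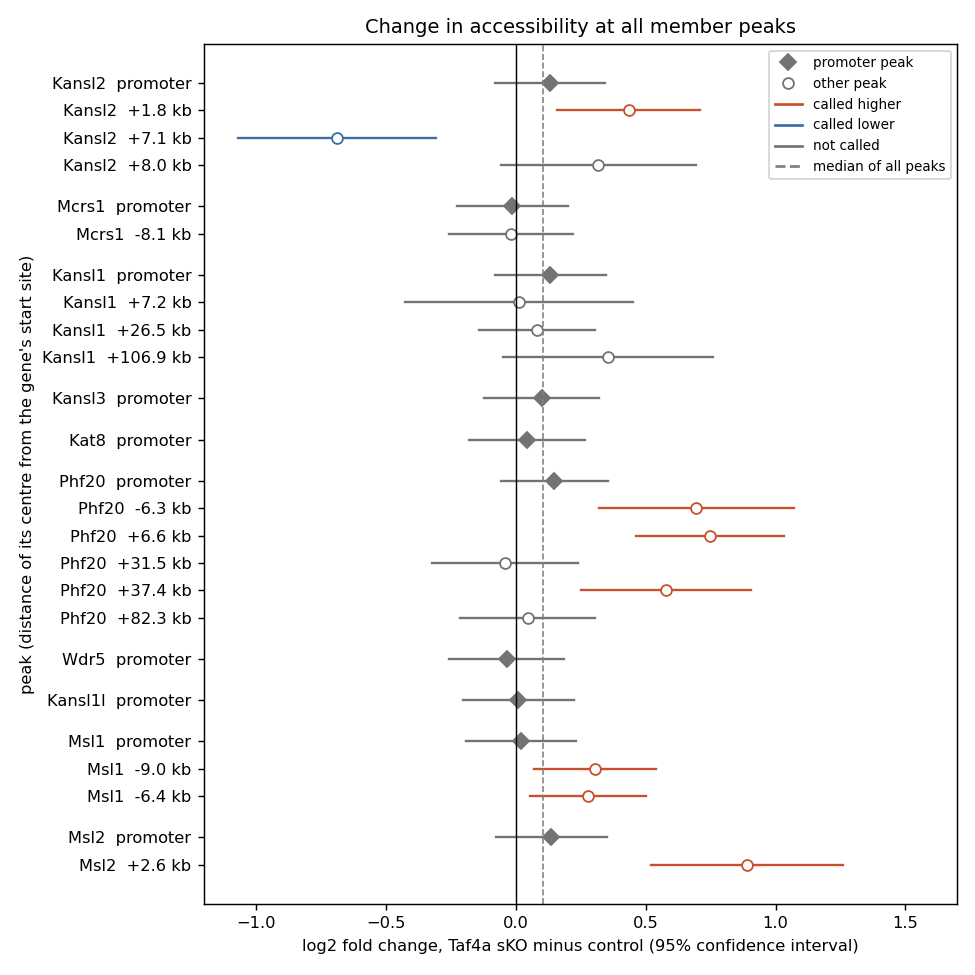
Log2 fold change (x axis, Taf4a sKO minus control) with 95% confidence interval from limma at the 25 member peaks (y axis, named by gene and by the distance of the peak centre from the gene's start). Filled diamonds are promoter peaks and open circles other peaks, and the dashed line is the median of all peaks. The 10 diamonds lie between -0.03 and 0.15, and the open circles spread from -0.69 to 0.89.

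Kansl2 carried calls in both directions within its introns. The peak at chr15:98532363-98532570, 1.8 kb inside the gene in an intron, had 368, 326 and 406 in control and 534, 493 and 458 in Taf4a sKO MuSCs. It rose in the mutant, with a log2 fold change of 0.43 (SE 0.13, adjusted p = 0.011, limma). The call was lost without control library 2 or Taf4a sKO library 1 (log2 fold change 0.35 and 0.38, adjusted p = 0.064 and 0.058, limma). It was also lost with quantile normalization, where the log2 fold change was smaller, at 0.21 (adjusted p = 0.083, limma). The peak at chr15:98526959-98527463, 7.1 kb inside the gene in an intron, had 150, 133 and 161 in control and 105, 100 and 72 in Taf4a sKO MuSCs. It fell by 0.69 on the log2 scale (SE 0.18, adjusted p = 0.0043, limma) and was the only member peak called lower. The third inner peak, at chr15:98526060-98526484, touches an exon of Kansl2 and the small nucleolar RNA gene Snora2b, and with 114, 83 and 101 against 135, 114 and 121 it was not called (log2 fold change 0.32, adjusted p = 0.17, limma).

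Because both values come from the same library, the ratio of the Kansl2 peaks does not depend on the scaling between libraries. The higher peak divided by the lower peak gave 2.45, 2.45 and 2.52 in control libraries and 5.09, 4.93 and 6.36 in mutant libraries. The lowest mutant ratio lay well above the highest control ratio. These peaks were picked by their calls, so the ratio is a description. As a percentage of the Kansl2 promoter peak, the peak 1.8 kb inside the gene held 11.9% ± 0.03 in control and 14.7% ± 0.81 in Taf4a sKO MuSCs (SD, n = 3), and the peak 7.1 kb inside held 4.81% ± 0.09 and 2.74% ± 0.50.

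Phf20 had the most peaks of the members, 6, and 3 of them were called higher. The peak at chr2:156202682-156203412, in an intron 6.6 kb past the start, had 232, 277 and 293 in control and 473, 419 and 452 in Taf4a sKO MuSCs. The groups were far apart, with a log2 fold change of 0.75 (SE 0.14, adjusted p = 0.00014, limma), the smallest adjusted p among the members. The peak at chr2:156189784-156190474, 6.3 kb upstream of the start, had 86, 87 and 126 in control and 147, 171 and 161 in Taf4a sKO MuSCs (log2 fold change 0.70, SE 0.18, adjusted p = 0.0036, limma). The peak at chr2:156233298-156234372, in an intron 37.4 kb past the start and without a gene in the table, had 176, 173 and 250 in control and 276, 291 and 317 in Taf4a sKO MuSCs (log2 fold change 0.58, SE 0.16, adjusted p = 0.0051, limma, and 0.051 without control library 2).

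The other intronic peaks of Phf20 held more signal and were not called. The peak 31.5 kb inside the gene had 456, 404 and 558 in control and 426, 458 and 484 in Taf4a sKO MuSCs (log2 fold change -0.04, adjusted p = 0.84, limma), and the peak 82.3 kb inside had 543, 523 and 645 against 637, 540 and 586 (log2 fold change 0.05, adjusted p = 0.80, limma). In control MuSCs the called peaks of Phf20 had means of 99.7, 199.7 and 267.3, and the uncalled ones 472.7 and 570.3.

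The 3 peaks of Msl1 and Msl2 outside promoters were called higher. The Msl2 peak at chr9:101076547-101076776, in an intron 2.6 kb past the start, had 118, 159 and 207 in control and 268, 318 and 293 in Taf4a sKO MuSCs. It had the largest log2 fold change among the members, 0.89 (SE 0.18, adjusted p = 0.00039, limma). The Msl1 peaks lay upstream of the gene, with no other gene annotated over them, and were as strong as a promoter. The peak 9.0 kb upstream, at chr11:98785821-98787297, had 2529, 2084 and 2866 in control and 3317, 2910 and 2947 in Taf4a sKO MuSCs (log2 fold change 0.30, SE 0.11, adjusted p = 0.034, limma). The peak 6.4 kb upstream, at chr11:98788738-98789532, had 1587, 1385 and 1805 in control and 1984, 1881 and 1894 in Taf4a sKO MuSCs (log2 fold change 0.28, SE 0.11, adjusted p = 0.043, limma). Per kb in control MuSCs these upstream peaks held 1688 and 2003, against 1093 at the Msl1 promoter. Both Msl1 calls were lost when any library other than control library 3 was left out, with adjusted p up to 0.16 and log2 fold changes of 0.18 at both peaks without control library 2 and of 0.24 to 0.34 without the others, and with limma without trend and robust moderation (adjusted p = 0.15 and 0.14).

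The Mcrs1 peak 8.1 kb upstream of the start, at chr15:99259462-99260594, lies in the body of 1700120C14Rik. It had 946, 803 and 888 in control and 892, 770 and 943 in Taf4a sKO MuSCs, and did not differ beyond the replicate error (log2 fold change -0.02, 95% confidence interval -0.26 to 0.22, adjusted p = 0.91, limma).

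**Figure D3:**
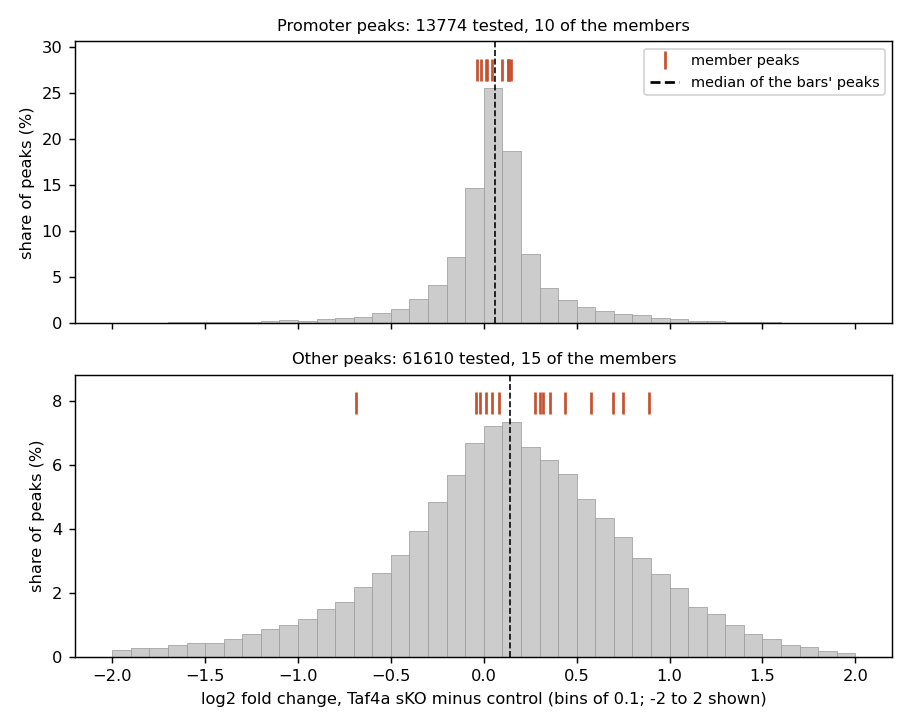
Share of peaks in percent (y axis) by log2 fold change (x axis, bins of 0.1) for all promoter peaks (upper panel) and all other peaks (lower panel), with the member peaks as ticks above the bars and the median of each panel dashed. The 10 promoter ticks sit in the narrow centre around the median of 0.06, and the 15 other ticks spread over the wider distribution around 0.14.

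Within a gene, the peaks outside the promoter were then compared with the promoter peak of the same library, so that the scaling of a library cancels apart from the pseudocount of 1. Such a contrast could be fitted for 7925 genes, of which 21.0% were called higher and 19.0% lower in Taf4a sKO MuSCs. Of the 6 members with both kinds of peak, Msl2 was called higher and none lower. The Msl2 peak held 3.1%, 4.4% and 4.5% of the promoter value in control and 5.9%, 7.5% and 6.9% in Taf4a sKO MuSCs (log2 difference 0.75, SE 0.17, adjusted p = 0.013, limma). At Msl1 the upstream peaks together held 171%, 145% and 161% of the promoter value in control and 199%, 187% and 191% in Taf4a sKO MuSCs. The Msl1 groups did not overlap, but the contrast missed the threshold (log2 difference 0.27, SE 0.09, adjusted p = 0.052, limma).

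At Kansl2 the inner peaks together held 20.5%, 19.8% and 19.6% of the promoter value in control and 22.2%, 21.6% and 19.6% in Taf4a sKO MuSCs, since the higher and the lower peak were summed (log2 difference 0.08, adjusted p = 0.48, limma). Phf20 (log2 difference 0.13, adjusted p = 0.29), Kansl1 (-0.05, adjusted p = 0.70) and Mcrs1 (-0.01, adjusted p = 0.98) did not pass the test either. Taken singly, all 8 called peaks had percentages of the promoter value whose groups did not overlap, which their choice by call favours. So had an uncalled peak, 82.3 kb inside Phf20, with 17.7% ± 0.71 in control and 16.5% ± 0.79 in Taf4a sKO MuSCs (SD, n = 3). The Phf20 peak 6.6 kb past the start went from 8.35% ± 1.02 to 12.6% ± 0.54 (SD, n = 3), and the peak 6.3 kb upstream from 3.08% ± 0.47 to 4.51% ± 0.55.

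**Figure D4:**
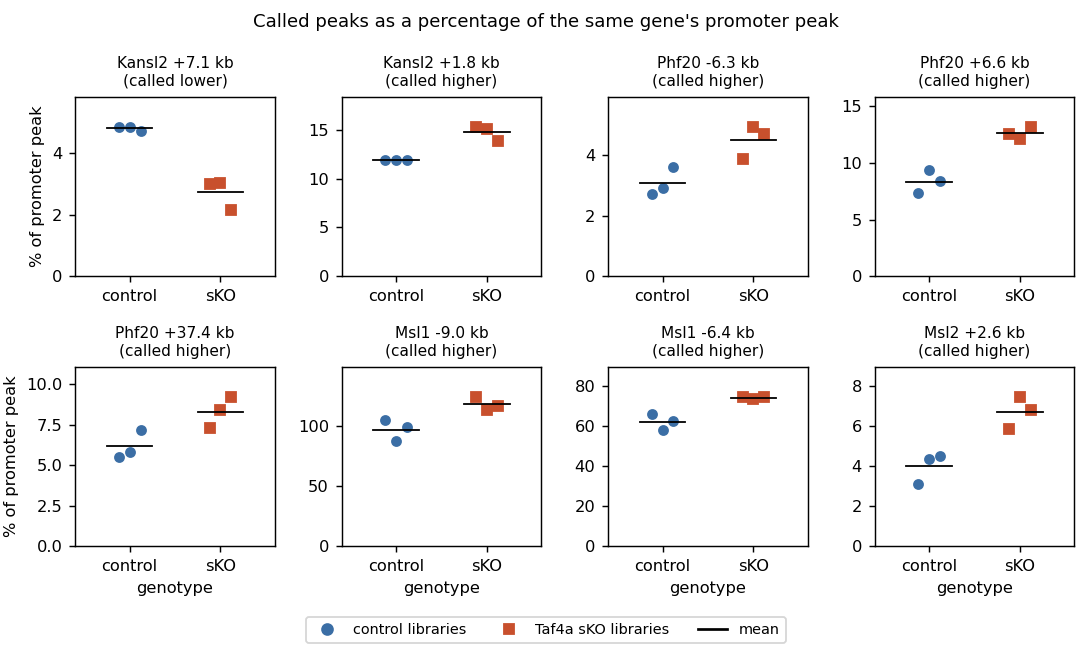
Value of each of the 8 called peaks as a percentage of the promoter peak of the same gene and library (y axis, from 0) in control and Taf4a sKO libraries (x axis), with 1 point per library and a line at the mean. In all 8 panels the genotypes are apart, downward only in the Kansl2 peak 7.1 kb inside the gene.

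Summed over all peaks of a gene, no member was called, where 22.2% of 21396 genes were called higher and 10.7% lower. The largest summed change was at Phf20, with 4669, 4432 and 5358 in control and 5736, 5335 and 5428 in Taf4a sKO MuSCs (log2 fold change 0.19, 95% confidence interval -0.02 to 0.41, adjusted p = 0.18, limma). Msl1 was close to it, with 6526, 5859 and 7565 against 7967, 7356 and 7376 (log2 fold change 0.19, adjusted p = 0.20, limma). Kansl2 had 3713, 3283 and 4084 in control and 4259, 3983 and 3971 in Taf4a sKO MuSCs (log2 fold change 0.15, 95% confidence interval -0.07 to 0.36, adjusted p = 0.33, limma). With median-of-ratios scaling the Mcrs1 and Wdr5 sums were called lower (adjusted p = 0.021 and 0.037, limma), beside 25.4% of all genes, and without control library 3, 6 gene sums were called higher, beside 39.5%.

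The promoter peaks whose values were most like those of the Kansl2 promoter over the 6 libraries were at Usp3 (Pearson r = 0.9996), Rhoq (0.9985) and Atg2a (0.9983). This likeness describes the libraries they share: the median r of all 13774 promoter peaks with the Kansl2 promoter was 0.72, and 112 exceeded 0.99, the named peaks among them.

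Partner genes of the complexes were examined at the peak nearest to their start. Of 32 genes in 6 lists, 30 had a peak, and 3 of these nearest peaks were called higher and none lower, beside 12.8% higher and 6.35% lower among all promoter peaks. The nearest peaks of Ash2l, Dpy30 and Nfyc lay outside promoters. With median-of-ratios scaling, Msl3 and Hdac2 were also called higher (adjusted p = 0.028 and 0.019, limma), and Ash2l, Lemd3 and Sirt1 were called lower (adjusted p = 0.0026, 0.026 and 0.048), beside 12.4% higher and 22.6% lower among all promoter peaks. Among the other NSL and MSL subunits, Ogt was called higher and Hcfc1, Msl3 and Phf20l1 were not called. Ogt, the O-GlcNAc transferase found in the NSL complex, had 707, 667 and 790 in control and 887, 911 and 957 in Taf4a sKO MuSCs (log2 fold change 0.35, SE 0.11, adjusted p = 0.015, limma). The groups did not overlap. Among the H4K16 deacetylases, which remove the mark that KAT8 sets, Sirt2 was called higher, with 2131, 1915 and 2303 in control and 2735, 2520 and 2422 in Taf4a sKO MuSCs (log2 fold change 0.28, SE 0.10, adjusted p = 0.035, limma), and Sirt1, Hdac1 and Hdac2 were not called.

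In the nuclear lamina list, 1 of 9 genes with a peak was called. Sun2, whose product links the lamina to the cytoskeleton, had 2281, 2033 and 2445 in control and 3102, 2930 and 2879 in Taf4a sKO MuSCs (log2 fold change 0.40, SE 0.10, adjusted p = 0.0026, limma). No nearest peak was called among the other MYST acetyltransferases (3 with a peak), the WDR5 partners in MLL complexes (6) or NF-Y and Sp1 (4), the factors that bind CCAAT and GC boxes. The median log2 fold change of the nearest peaks was 0.19 for the other subunits, 0.16 for the deacetylases, 0.14 for the lamina, 0.11 for the MYST genes, 0.10 for NF-Y and Sp1 and 0.04 for the MLL partners, beside 0.06 for all promoter peaks. Counting all 79 peaks of these genes, 10 were called higher and 7 lower, against 28.0% higher and 13.9% lower among all peaks.

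The label of the cells was checked on marker genes. All 8 MuSC markers had a promoter peak, with Pax7 at 1963 per kb and Cdh15 at 2132 per kb in control MuSCs. The Pax7 promoter peak fell in Taf4a sKO MuSCs (log2 fold change -0.32, adjusted p = 0.030, limma), and the Vcam1 peak rose (0.35, adjusted p = 0.018, limma). With median-of-ratios scaling, the Myf5 and Sdc4 promoter peaks were also called lower (log2 fold change -0.34, adjusted p = 0.00021, and -0.17, adjusted p = 0.015, limma). That scaling called 22.6% of all promoter peaks lower. Of all 56 peaks of the MuSC list, 17 were called higher and 7 lower, beside 28.0% higher and 13.9% lower among all peaks. The promoter peaks of the MuSC list summed to 14178, 11736 and 14348 in control and 13419, 12622 and 12680 in Taf4a sKO libraries, which overlapped. Defining markers of other cells lacked a promoter peak, among them Ptprc, Itgam and Cd3e of blood cells, Pecam1, Cdh5 and Tie1 of endothelium, Pdgfra and Ly6a of mesenchymal cells and Sox10 of Schwann cells.

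Other marker peaks did move with the genotype. In the mesenchymal list, promoter peaks of 3 of 5 genes summed to 2074, 1827 and 2353 in control and 2889, 2747 and 2704 in Taf4a sKO libraries, with the strongest control peak per kb at Pdgfrb (858), and Col1a1 (log2 fold change 0.63) and Dcn (0.84) were called higher. Pdgfrb did not differ beyond the replicate error (-0.05, adjusted p = 0.78, limma). The Pdgfra peak nearest to the start, outside the promoter, was called lower, with 56, 45 and 48 in control and 35, 23 and 35 in Taf4a sKO libraries (log2 fold change -0.68, adjusted p = 0.044, limma). Of all 18 peaks of the mesenchymal list, 7 were called higher and 3 lower, beside 28.0% higher and 13.9% lower among all peaks. In the endothelial list, 2 of 5 genes summed to 1320, 1147 and 1648 in control and 1782, 1802 and 1704 in Taf4a sKO libraries, with the strongest peak at Tek (904 per kb), which was called higher (log2 fold change 0.40, adjusted p = 0.010, limma). Of all 23 endothelial peaks, 10 were called higher and 3 lower, beside the same 28.0% and 13.9% of all peaks. In the haematopoietic list, 1 of 5 genes had a promoter peak, Cd68 (947 per kb), which fell from 201, 208 and 307 to 129, 133 and 129 (adjusted p = 0.00037, limma). The only other gene of that list with a peak, Csf1r, moved the opposite way at a peak away from its promoter, with 192, 249 and 297 in control and 461, 395 and 507 in Taf4a sKO libraries (log2 fold change 0.90, adjusted p = 0.0001, limma). The myofibre list (3 of 5, strongest at Myh1, 878 per kb) had 1523, 1351 and 1796 in control and 1692, 1609 and 1619 in Taf4a sKO libraries, which overlapped. Of all 9 myofibre peaks, both Acta1 peaks were called lower and none higher, beside 13.9% lower and 28.0% higher among all peaks. The Acta1 peak nearest to the start, outside the promoter, had 279, 317 and 280 in control and 205, 169 and 178 in Taf4a sKO libraries (log2 fold change -0.67, adjusted p = 0.00085, limma). The part of other cells in the called member peaks was not tested.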

How the data were processed

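ATAC-seq of freshly isolated MuSCs (3 control and 3 Taf4a sKO libraries) was analysed. Per the labels and the methods, the authors trimmed reads with Trimmomatic 0.39, aligned them with STAR 2.7.11b to mm10, removed duplicates with Picard 3.1.1, discarded reads that mapped to several places, across splice junctions or to ribosomal or mitochondrial sequence, ran MACS per sample with no input, merged the peaks and counted reads with featureCounts. The deposited score is this count normalized for depth by the authors and rounded. A read shift for Tn5 is not given in the sources used here. The authors' contrasts used DESeq2 with equal size factors and thresholds on the mean and the fold change. A count model was not used here, since the values are not raw counts.

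Values were tested with limma 3.58.1 (R 4.3.3) on log2(value + 1), using robust moderation and a trend, for peaks above a mean of 10, with Benjamini-Hochberg adjustment. The script was tested on simulated data. Features came from GENCODE vM21. Named by a set rule are all 10 genes, every member peak called, Taf4a, the 3 promoter peaks most like that of Kansl2, and, with their values, partner genes whose nearest peak was called. Other partner genes, marker genes and uncalled member peaks are named to complete their lists. Members and lists were chosen with earlier results of these data known. No per-sample column was left unused. Alternatives covered scaling, filter, pseudocount, moderation, promoter distance, annotation, a replicate block and each library left out. With 3 libraries per genotype, precision is limited. The summed level of a further marker list is not reported here.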

Additional observations from a re-analysis of the deposited data

How the results depend on the processing

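Other scalings raised the number of lower calls. Peaks called lower in Taf4a sKO MuSCs numbered 10476 as deposited, 16945 with median-of-ratios factors, 19465 with equal totals in peaks and 18901 with quantile normalization. Among the members, in that order, 1, 3, 5 and 8 peaks, 0, 2, 4 and 5 promoter peaks and 0, 2, 3 and 3 gene sums were called lower. The shares called lower were, in the same order, 13.9%, 22.5%, 25.8% and 25.1% of all peaks. Of all promoter peaks they were 6.35%, 22.6%, 32% and 33.4%, and of all gene sums 10.7%, 25.4%, 32.3% and 32.9%. The median log2 fold change of all peaks was 0.10, -0.01, -0.04 and -0.02. All 8 calls of the member peaks held with the first 2 of these scalings and 7 with quantile normalization, where the Kansl2 peak 1.8 kb inside the gene was lost.

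Several promoter peaks that were not called as deposited changed sign (log2 fold changes). With median-of-ratios factors, Kansl3 had -0.014, Kat8 -0.070, Kansl1l -0.103, Msl1 -0.094 and the inner Kansl1 start -0.033. With equal totals, Kansl2 had -0.017, Kansl1 -0.015, Kansl3 -0.050, Kat8 -0.105, Kansl1l -0.138, Msl1 -0.130, Msl2 -0.012 and the inner Kansl1 start -0.068. With quantile normalization, Kansl1 had -0.012, Kansl3 -0.061, Kat8 -0.156, Kansl1l -0.077, Msl1 -0.105 and the inner Kansl1 start -0.031. Of these, Kansl1l and Msl1 were called lower with equal totals (adjusted p = 0.0049 and 0.015, limma), and Kat8, Kansl1l and Msl1 with quantile normalization (0.047, 0.023 and 0.035), beside Mcrs1 and Wdr5 with both. Among all promoter peaks, 32.0% and 33.4% were called lower. The causes were not tested.

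Leaving out each library in turn, member peaks called higher ranged from 3 (without control library 2) to 12 (without control library 3), beside 21.3% and 37.8% of all peaks. Promoter peaks of the members called higher ranged from 0 to 4, their gene sums from 0 to 6 and gained member peaks from 0 to 1. Each was highest without control library 3. There 29.5% of all promoter peaks and 39.5% of all gene sums were called higher, and 9.76% of all peaks were gained. Without Taf4a sKO library 1, 4 member peaks were called higher, beside 23.0% of all peaks. The log2 fold change ranged from -0.094 to 0.065 at the Mcrs1 promoter, from -0.106 to 0.050 at Wdr5, from -0.088 to 0.099 at Kansl1l, from -0.029 to 0.109 at Msl1 and from -0.027 to 0.189 at the inner Kansl1 start. The Kansl2 peak 7.1 kb inside the gene, the Phf20 peaks at 6.3 and 6.6 kb and the Msl2 peak at 2.6 kb (also against the promoter) kept their calls in all alternatives run.

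Without trend and robust moderation, 5 member peaks were called higher and 1 lower, the Msl1 calls being lost. Among all peaks, 24.8% were then called higher and 13.5% lower. With a 1.5-fold threshold in place of 2-fold, 3 member peaks were gained and 1 lost, beside 19.4% and 11.5% of all peaks. With a minimum mean of 50, Msl1 was also called higher in the contrast within genes, which made 2. Among all genes in that contrast, 23.1% were called higher and 18.9% lower. The labels do not say whether the replicate numbers pair the libraries. The correlation of deviations was 0.110, -0.118 and -0.029 between same-numbered libraries and ran from -0.120 to 0.151 between the others. With 3 libraries per genotype, such values cannot decide whether a pairing existed. With the replicate block the same 8 member peaks were called, 7 higher and 1 lower, beside 29.1% higher and 14.6% lower among all peaks.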
